A study of Mus musculus with 2 samples.

Results

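The genes described here control the G1 phase of the cell cycle and the exit from it, in the forebrain of the mouse embryo. They were listed by name and not by a cut on their values, though with earlier results of these data known. The list holds G1 cyclins, their kinases and inhibitors, Cdk5 and its activators, and the Rb and E2f families. The p53 axis, the Myc factors and regulators of cell cycle exit complete it. All 38 genes were found among the 43346 genes listed in the deposited tables. Both samples are forebrain of B6NCrl embryos at 16.5 days of gestation, with male and female embryos pooled and with no treatment or allele named. Total RNA above 200 nt was sequenced from 10 ng of starting RNA with added spike-in RNAs. The samples form 1 group of 2 biological replicates, called replicate 1 and replicate 2, and replicate 2 came from 41 embryos. Each library is a pool of whole forebrains, so dividing progenitors, newborn neurons, vessels and meninges were measured together.

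A cell in G1 commits to another division when D-type cyclins activate Cdk4 and Cdk6 and E-type cyclins activate Cdk2. These kinases phosphorylate the pocket proteins Rb1, Rbl1 and Rbl2, which releases E2f factors and the genes of DNA replication that they control. Inhibitors of the Cip/Kip and INK4 families hold the kinases back, and in the developing cortex the balance between the cyclins and the inhibitors accompanies the choice of a progenitor to divide again or to become a neuron.

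Several of these genes carry E2f words near their own start sites. RefSeq (GRCm38.p6) windows of 250 bases before to 50 bases after a start site were matched for 29 of the 38 genes, with 36 windows. The words TTTCCCGC, TTTCGCGC, TTTGCCGC and TTTGGCGC, the core of the sites bound by E2f factors, were searched on both strands. They occurred in 7 of these 36 windows and in 744 of all 32851 windows (2.26%). The 7 windows belong to Cdk2, Cdkn2a, E2f2, E2f3, E2f7, Mycn and Rbl1. The stretches before the start site are printed for 5 of them, read along the gene from 5′ to 3′, because they place one of these words before a kinase, a pocket protein, an activating and an atypical E2f and a Myc factor. Capitals mark a match on either strand. Cdk2, E2f3 and E2f7 hold TTTCCCGC, read on the other strand, Rbl1 holds TTTCGCGC, and Mycn holds TTTGGCGC and TTTCGCGC.
Cdk2 (chr10:128705164-128705211, minus strand): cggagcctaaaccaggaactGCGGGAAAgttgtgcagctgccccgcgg
Rbl1 (chr2:157204535-157204572, minus strand): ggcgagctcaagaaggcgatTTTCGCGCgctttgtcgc
E2f3 (chr13:29986064-29986094, minus strand): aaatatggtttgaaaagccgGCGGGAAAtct
E2f7 (chr10:110745221-110745268, plus strand): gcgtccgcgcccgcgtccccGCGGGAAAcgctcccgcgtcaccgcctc
Mycn (chr12:12941977-12942039, minus strand): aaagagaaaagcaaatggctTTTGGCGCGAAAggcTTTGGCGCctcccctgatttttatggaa
Mycn held 3 matches, of which the first and the second overlap on opposite strands. The match of Rbl1 begins 18 bases before the start site and that of E2f3 begins 11 bases before it, while the first match of Mycn begins 183 bases before it. The Cdkn2a match lies 99 bases before a start site on chromosome 4 (window 89294570 to 89294869), the upstream one of the gene's start sites, from which the p19Arf message begins. The E-box CACGTG, the word bound by Myc with its partner Max, occurred in 6 of the 36 windows and in 2349 of all windows (7.15%). Cdk4 held 4 of these words, and its stretch is printed because Cdk4 was the most abundant of the 38 genes.
Cdk4 (chr10:127063343-127063534, plus strand): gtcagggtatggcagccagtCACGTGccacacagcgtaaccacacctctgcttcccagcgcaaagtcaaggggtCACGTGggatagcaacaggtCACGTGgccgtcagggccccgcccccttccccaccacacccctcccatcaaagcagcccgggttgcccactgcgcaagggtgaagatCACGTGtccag
A match is a word in the sequence and not a measured binding site. The other 5 windows with an E-box belong to Cdk6, Cdkn2c, E2f3, Gadd45g and Trp53.

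Levels are given as TPM, a measure of transcript abundance that divides by transcript length and allows genes to be compared with each other. Differences between the libraries are given as log2 ratios of scaled counts, replicate 2 minus replicate 1, with a 95% exact counting interval. A gene is called higher or lower in replicate 2 where this interval leaves out 0. Both libraries belong to 1 group, so such a call describes these libraries, the interval covers counting error only, and no p-value was computed (an exact sign test over 2 libraries cannot go below p = 0.5).

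Depth on genes was 31211128 estimated counts for replicate 1 and 26957198 for replicate 2, and spike-ins took 5.93% and 4.10% of TPM. All 5 telencephalon markers were above 1 TPM in both libraries (summed level 376 and 418 TPM), and none of 6 midbrain and hindbrain markers was, with Hoxa2 and Hoxb4 at 0. The libraries also differed in their content. The summed level of the midbrain and hindbrain markers was 0.66 and 3.23 TPM, and Gata3, the 1 of them with enough counts to compare, was higher in replicate 2 (16 and 93 counts, log2 ratio 2.74). All 7 markers of proliferating cells were higher in replicate 2 (summed level 431 and 539 TPM), as were all 7 radial glia markers (1751 and 2195 TPM) and all 3 intermediate progenitor markers (106 and 137 TPM). Among the radial glia markers, Pax6 was higher by its counts (log2 ratio 0.14) but not by its TPM (35.05 and 33.87). Of 7 markers of postmitotic neurons, 5 were lower and 2 higher (3495 and 3311 TPM). Meninges and connective tissue markers were higher in 5 of 5 (194 and 453 TPM), erythroid markers in 5 of 6 (10592 and 13407 TPM), microglia markers in 3 of 4 (49.95 and 67.0 TPM) and endothelial markers in 3 of 3 (95.5 and 115.8 TPM). All 6 hypothalamus and thalamus markers were lower (86.0 and 33.9 TPM). The part of these differences in the results below was not tested. In bulk tissue, fewer cells of a type and less RNA per cell cannot be told apart.

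The G1 machinery was present almost in full. At a minimum of 1 TPM in both libraries, 36 of the 38 genes were detected, beside 60.7% of 21474 protein-coding genes. At 10 TPM in both libraries, 28 of the 38 remained, beside 40.9% of protein-coding genes. The median of the 38 genes was 28.8 TPM, and that of detected protein-coding genes 21.9 TPM. The exceptions were the INK4 inhibitors Cdkn2a and Cdkn2b, which are neighbours on chromosome 4.

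**Figure D1:**
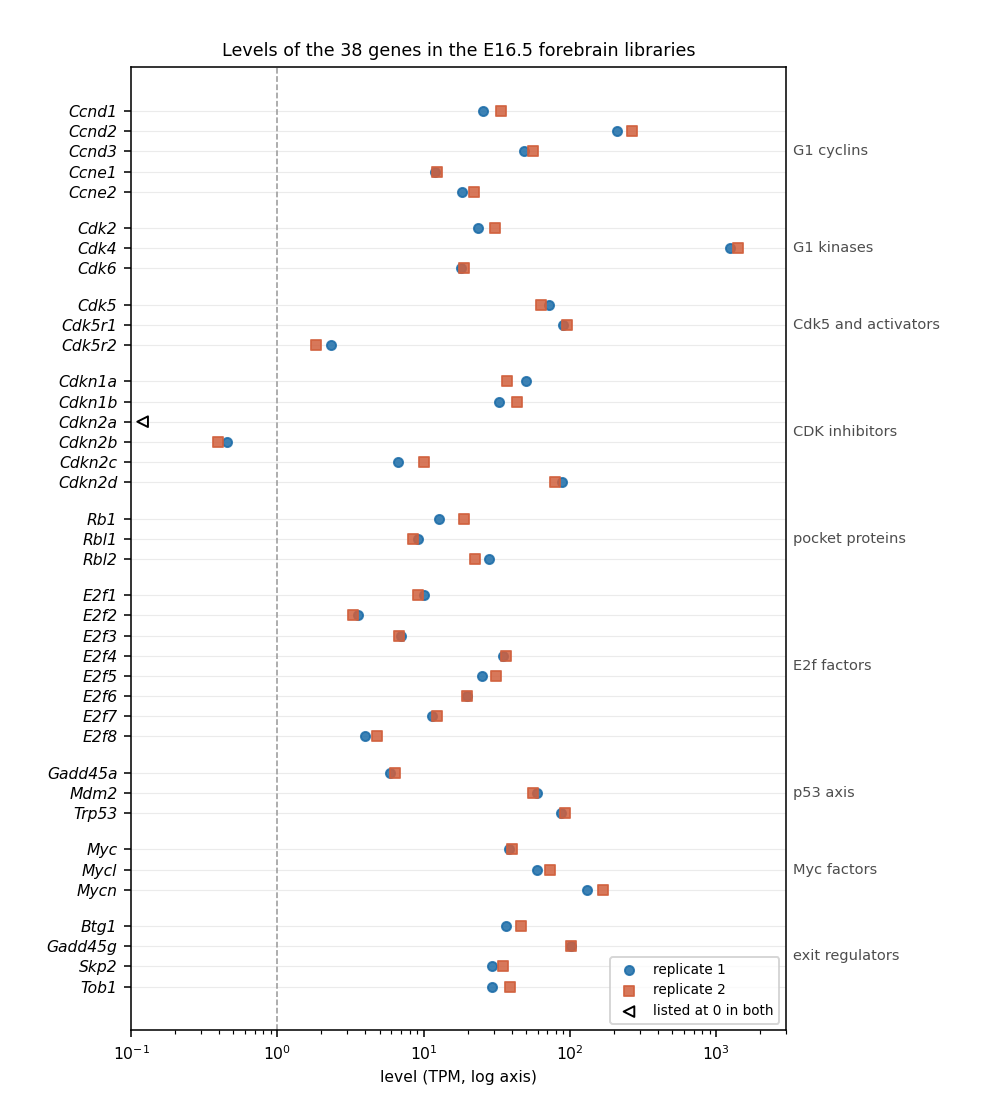
Level of each of the 38 genes in TPM (log axis), with a circle for replicate 1, a square for replicate 2 and a dashed line at 1 TPM. The genes run from Cdkn2a, listed at 0 in both libraries, and Cdkn2b below the line to Cdk4 at 1234 and 1401 TPM, and the 2 symbols of a gene lie close together compared with the spread among genes.

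Among the cyclins, Ccnd2 led. Ccnd2, the D-type cyclin of cortical basal progenitors, was measured at 210 and 263 TPM in replicates 1 and 2. Ccnd3 stood at 48.7 and 56.0 TPM, and Ccnd1, the D-type cyclin of radial glia, at 25.4 and 33.6 TPM. Replicate 2 was the higher library for all 3. Ccnd2 took 73.9% and 74.6% of the summed D-type cyclin level, and its level was 8.26 and 7.82 times that of Ccnd1. The log2 ratio of Ccnd2 over Ccnd1 was 3.01 ± 0.06 (SD, n = 2) and that of Ccnd1 over Ccnd3 was -0.84 ± 0.14, so the order Ccnd2, Ccnd3, Ccnd1 held in each library.

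Part of the Ccnd1 level rested on a short transcript. Ccnd1-202, a retained-intron model of 470 nt, held 41.4% and 50.2% of the gene's TPM but 73.2 and 98.7 of its 1092 and 1060 expected counts. The coding transcript of Ccnd1 alone stood at 14.9 and 16.8 TPM. On coding transcripts the log2 ratio of Ccnd2 over Ccnd1 was 3.89 ± 0.11 (SD, n = 2). Coding transcripts were examined after the gene levels had been seen. Ccnd1 also shares 1100 exonic bases with LTO1 on the opposite strand, and Ccnd3 shares 361 with Bysl. Of the genes described here, 14 share exonic bases with a gene on the opposite strand. Whether the authors counted by strand is not given in the sources used here, so reads of such pairs cannot be told apart.

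The E-type cyclins, which act with Cdk2 at the end of G1, were below Ccnd2 and Ccnd3 in each library. Ccne1 stood at 11.9 and 12.3 TPM and Ccne2 at 18.4 and 21.9 TPM. Ccne2 was the higher of the pair in each library, with a log2 ratio of Ccne1 over Ccne2 of -0.73 ± 0.15 (SD, n = 2). Ccnd1 exceeded Ccne1 by a log2 ratio of 1.27 ± 0.25 on all transcripts and by 0.42 ± 0.09 on coding transcripts. Ccne2 was below Ccnd1 on all transcripts but above it on coding transcripts, where Ccne2 stood at 16.9 and 20.0 TPM and Ccnd1 at 14.9 and 16.8 TPM.

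Cdk4, the kinase partner of the D-type cyclins (chromosome 10, 127063534 to 127067920), ranked first among the 38 genes. Its level was 1234 and 1401 TPM, above 99.8% of protein-coding genes. Cdk6, its close relative, stood at 18.0 and 18.7 TPM, and Cdk2 at 23.6 and 30.8 TPM. Cdk4 took 96.7% and 96.6% of the summed level of the 3 kinases, with a log2 ratio of 6.16 ± 0.09 over Cdk6 and 5.61 ± 0.14 over Cdk2 (SD, n = 2).

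The transcript tables divide this Cdk4 signal among 9 models. Cdk4-209, a retained-intron model of 468 nt, held 39.6% and 40.3% of the TPM and 18.5% and 19.4% of the expected counts. Cdk4-205, a coding model of 950 nt, held 21.2% and 23.7% of the counts. Cdk4-201, the longest model at 2053 nt, held 18.5% and 18.7% of the counts and 7.46% and 7.35% of the TPM. Of the models with counts, those of 468, 574 and 752 nt weighed more in TPM than in counts, and those of 924 nt or longer weighed less. The 4 coding models, of which Cdk4-202 had 0 counts, summed to 398 and 457 TPM, which is 32.2% and 32.6% of the gene's TPM and 46.8% and 47.9% of its counts. On coding transcripts the log2 ratio was 4.54 ± 0.10 over Cdk6 and 3.98 ± 0.13 over Cdk2, so Cdk4 remained the highest of the 3 kinases at a smaller distance. Cdk4-201 shares 641 bases with Tspan31 on the opposite strand, which stood at 88.7 and 87.4 TPM, and Cdk4-209 shares none.

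**Figure D2:**
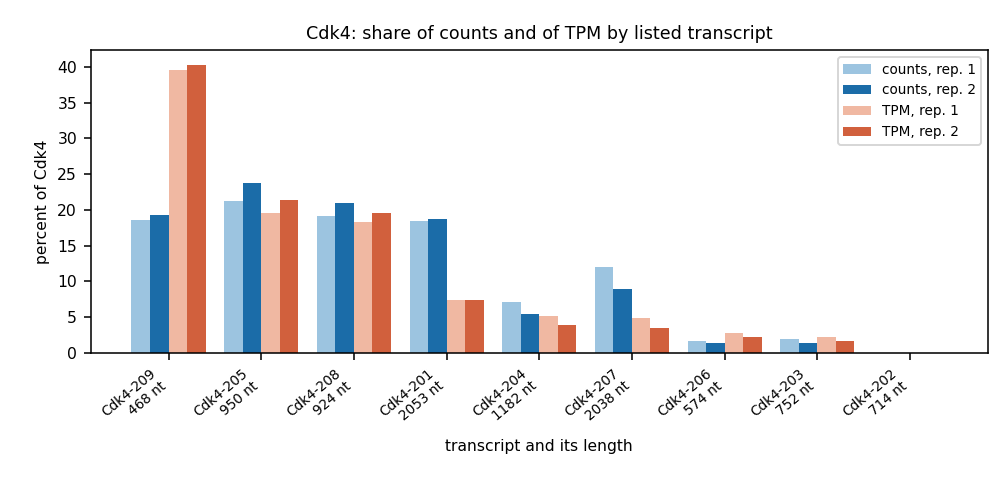
Percent of the Cdk4 expected counts (blue) and of the Cdk4 TPM (red) held by each of the 9 listed transcripts in each library, with the transcript length below its name. Cdk4-209, of 468 nt, holds 39.6% and 40.3% of the TPM but 18.5% and 19.4% of the counts, and Cdk4-201, of 2053 nt, shows the opposite.

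Cdk5 is a relative of these kinases that works in postmitotic neurons with the activators p35 (Cdk5r1) and p39 (Cdk5r2) rather than with a cyclin. Cdk5 stood at 71.3 and 63.7 TPM and Cdk5r1 at 90.1 and 95.3 TPM. Cdk5r2 stood at 2.33 and 1.83 TPM, from 118 and 78 expected counts. Cdk5r1 made up 97.5% and 98.1% of the summed activator level, with a log2 ratio over Cdk5r2 of 5.49 ± 0.30 (SD, n = 2).

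The CDK inhibitors spread from 0 to 87.6 TPM. Of the INK4 family, which binds Cdk4 and Cdk6, Cdkn2d (p19Ink4d) stood at 87.6 and 78.7 TPM and took 92.5% and 88.2% of the family's summed level. Cdkn2c (p18Ink4c) stood at 6.67 and 10.1 TPM. Cdkn2b (p15Ink4b) stood at 0.45 and 0.39 TPM, from 11 and 8 expected counts. The INK4 family was thus represented mainly by 1 of its 4 genes. Cdkn2a, the locus of p16Ink4a and p19Arf (chromosome 4, 89274471 to 89294653), had 0 expected counts in both libraries. Such a 0 is compatible with up to 3 counts, or 0.206 and 0.246 TPM at the effective length of the gene in replicates 1 and 2. Both of its transcripts, which start at 89282192 and 89294653 and have different first exons, had 0 counts, so neither message was detectable at this depth.

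Of the Cip/Kip family, Cdkn1b (p27Kip1), an inhibitor linked to cell cycle exit of cortical progenitors, stood at 32.8 and 43.1 TPM. Cdkn1a (p21), an inhibitor that p53 induces, stood at 49.7 and 37.3 TPM. The order of the pair turned between the libraries, with a log2 ratio of Cdkn1b over Cdkn1a of -0.60 in replicate 1 and 0.21 in replicate 2. It was the only pair of 24 with opposite signs, and 23 pairs kept their sign. The third member of the family, Cdkn1c (p57Kip2), is not among the 38 genes and stood at 58.3 and 74.7 TPM. Cdkn1b was below Ccnd2 by a log2 ratio of -2.64 ± 0.05 (SD, n = 2).

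Of the pocket proteins, which hold E2f factors at their targets, Rbl2 (p130) stood at 28.1 and 22.2 TPM. Rb1, the retinoblastoma protein gene, stood at 12.8 and 18.7 TPM, and Rbl1 (p107), the pocket protein of cycling cells, at 9.20 and 8.45 TPM. Rbl2 was the highest and Rbl1 the lowest in each library. Noncoding models entered all 3 values, mainly short ones for Rb1 and Rbl2 and mainly models of 2383 and 2715 nt for Rbl1. The single coding transcript of each stood at 14.6 and 13.7 TPM for Rbl2, at 9.98 and 11.6 TPM for Rb1 and at 4.47 and 5.06 TPM for Rbl1. The log2 ratio of Rb1 over Rbl2 was -0.69 ± 0.63 on all transcripts and -0.39 ± 0.23 on coding transcripts (SD, n = 2). Rb1-202, a noncoding model of 411 nt, had 0 counts in replicate 1 and 12.9 counts in replicate 2, where it held 14.1% of the Rb1 TPM. Rb1 shares 488 exonic bases with Rcbtb2 on the opposite strand, and Rbl2 shares 693 with Aktip.

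Of the E2f family, the repressors that pocket proteins bind were the highest, with E2f4 at 34.8 and 36.7 TPM and E2f5 at 24.95 and 31.3 TPM. E2f6, a repressor that works without pocket proteins, stood at 19.8 and 19.9 TPM. The activators were lower, with E2f1 at 10.1 and 9.17 TPM, E2f3 at 7.03 and 6.76 TPM and E2f2 at 3.55 and 3.28 TPM. The 3 activators summed to 20.7 and 19.2 TPM, and E2f4 with E2f5 to 59.8 and 68.0 TPM. The atypical repressors, which bind DNA without a Dp partner, stood at 11.4 and 12.4 TPM for E2f7 and at 3.95 and 4.82 TPM for E2f8. On all transcripts E2f7 thus lay above the 3 activators and E2f8 between E2f3 and E2f2. On coding transcripts E2f7 stood at 5.47 and 6.02 TPM, below E2f1 (10.1 and 9.16 TPM) and E2f3 (5.66 and 6.22 TPM) in each library. The log2 ratio of E2f7 over E2f8 was 0.59 ± 0.04 on coding transcripts against 1.44 ± 0.12 on all transcripts (SD, n = 2). Of the Dp partners, Tfdp1 stood at 109 and 127 TPM and Tfdp2 at 27.1 and 28.0 TPM, so Tfdp1 exceeded every E2f gene in each library.

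Alternative start sites of E2f3 give the proteins E2f3a and E2f3b. The tables list 1 coding transcript of the gene, E2f3-201, with 489 and 451 expected counts and 80.6% and 92.0% of the TPM. The other, E2f3-202, is a noncoding model of 216 nt with 3 counts in replicate 1 and 1 in replicate 2. The printed E2f3 stretch with its E2f word ends at the base before the start of E2f3-201.

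The p53 axis was led by Trp53 itself at 86.2 and 92.7 TPM. Mdm2, the ubiquitin ligase that turns p53 over, stood at 59.1 and 55.4 TPM, and Gadd45a, a growth arrest gene that p53 induces, at 5.92 and 6.32 TPM. The log2 ratio of Mdm2 over Trp53 was -0.64 ± 0.14 (SD, n = 2). Trp53-201 held 81.5% of the gene's TPM in replicate 1 and 61.7% in replicate 2, and Trp53-203 held 0.35% and 19.5%. These models are 1772 and 1771 nt long, and posterior means, the tables' other estimate, gave Trp53-201 48.1% and 39.4%, so the split differed both between the libraries and between the estimates.

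Of the Myc factors, Mycn led. Mycn, the Myc family member of neural progenitors, stood at 130 and 167 TPM, Mycl at 59.5 and 72.7 TPM and Myc at 38.3 and 39.8 TPM. The order was the same in each library, with log2 ratios over Myc of 1.92 ± 0.21 for Mycn and 0.75 ± 0.17 for Mycl (SD, n = 2). Mycn-201 held 71.6% and 60.8% of the Mycn TPM. For Mycl, the leading transcript was Mycl-202 in replicate 1 (54.0%) and Mycl-201 in replicate 2 (48.3%). Mycn is also the gene with 3 E2f words in its window.

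Among the exit regulators, Gadd45g, a growth arrest gene induced during neurogenesis, stood at 101.2 and 101.0 TPM. Its log2 ratio over Gadd45a was 4.05 ± 0.07 (SD, n = 2). Btg1 and Tob1, antiproliferative proteins of 1 family, stood at 36.4 and 46.0 TPM and at 29.2 and 39.0 TPM. Skp2, the adaptor that marks p27Kip1 for degradation, stood at 29.2 and 34.9 TPM.

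**Figure D3:**
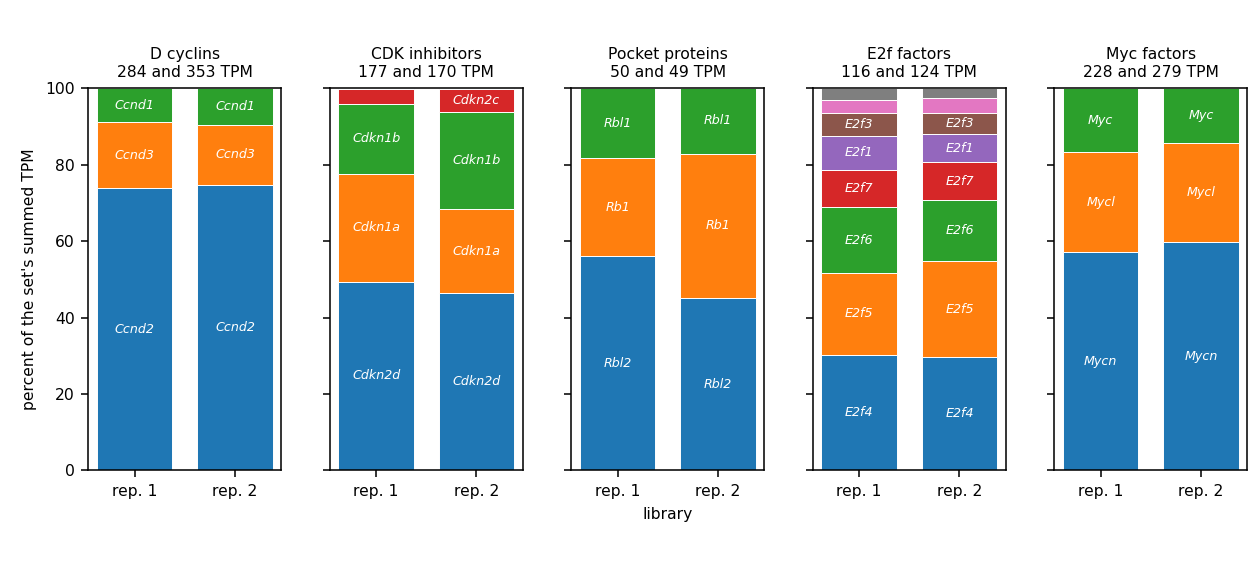
Percent of the summed TPM of 5 gene sets held by each gene in each library, with the summed TPM above the bars and the genes stacked in their order in replicate 1. The unnamed top segments of the E2f bars are E2f2 (grey) and E2f8 (pink), and the unnamed red one of the inhibitors in replicate 1 is Cdkn2c. Ccnd2, Cdkn2d, Rbl2, E2f4 and Mycn are the largest segments of their sets in both libraries, while Cdkn1b is larger and Cdkn1a smaller in replicate 2.

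Across the 21 genes at 10 TPM or more with several listed transcripts, 17 had the same leading transcript in both libraries and 16 had a leader with over 50% in both. The leader differed between the libraries in 4 genes, Ccnd1, E2f7, Myc and Mycl. For Myc, Myc-206 led in replicate 1 with 27.9% and Myc-202 in replicate 2 with 24.8%, and all of its listed models are coding. Myc-201 and Myc-205, both of 2338 nt with the same ends and exon number, held equal shares. Each had 22.6% in replicate 1 and 15.9% in replicate 2, so together they would lead in both libraries. The change of leader in Myc thus rests on counting these models apart. In 8 of the 38 genes coding transcripts held under 80% of the TPM in at least 1 library: Ccnd1, Cdk4, Rb1, Rbl1, Rbl2, E2f7, Mdm2 and Gadd45a.

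The libraries were then compared gene by gene. Of the 38 genes, 36 had a mean count of at least 50 and were compared, all but Cdkn2a and Cdkn2b. Of these, 17 were higher in replicate 2 (47.2%), 4 were lower (11.1%) and 15 lay within counting error. Over all 13927 genes compared, 26.5% were higher and 24.0% lower. None of the 36 differed by at least 2-fold, beside 0.366% of all genes that were at least 2-fold higher and 1.01% that were at least 2-fold lower. The median log2 ratio was 0.10 over the 36 genes and 0.01 over all genes, and 25 of the 36 were above 0.

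All 3 D-type cyclins were higher in replicate 2, with log2 ratios of 0.31 for Ccnd2 (interval 0.28 to 0.33), 0.22 for Ccnd3 and 0.19 for Ccnd1 (0.38 on the TPM scale, centred on the median of all genes). Ccne2 was higher at 0.23, and Ccne1 lay within counting error at 0.03. Cdk2 was higher at 0.37 (0.24 to 0.49) and Cdk4 at 0.13 (0.10 to 0.16), while Cdk6 lay within counting error at 0.04. The cyclin and kinase calls thus ran in 1 direction, beside 26.5% of all genes higher and 24.0% lower. It was also the direction of the 7 proliferation markers (median 0.29) and of other lists. Among these, the medians were 0.30 for radial glia, 0.33 for endothelial, 0.33 for erythroid and 0.94 for meninges and connective tissue markers. Markers of postmitotic neurons (-0.13) and of hypothalamus and thalamus (-1.65) went the other way. What lies behind this direction was not tested.

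The inhibitors did not move together. Cdkn2c had the highest ratio of the 36 genes at 0.67 (interval 0.42 to 0.92), above 98.7% of all genes compared, and Cdkn1b followed at 0.42 (0.32 to 0.51). Cdkn1a had the lowest ratio at -0.52 (-0.67 to -0.36), and Cdkn2d stood at -0.17 (-0.27 to -0.07). The lowest ratios outside this family that passed counting error were those of Cdk5 at -0.18 (-0.27 to -0.10) and Rbl2 at -0.17 (-0.28 to -0.05; -0.36 on the centred TPM scale). Scaling to spike-ins moved the median of all genes to 0.56 and turned these 4 lower genes to ratios above 0, and relative to that median they stood at -0.53 for Cdkn1a, -0.19 for Cdk5, -0.18 for Cdkn2d and -0.18 for Rbl2. Cdk5r1 was higher at 0.09 while its kinase Cdk5 was lower, and Cdk5r2 lay within counting error at -0.36 (-0.79 to 0.06).

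Rb1 was higher at 0.24 (interval 0.10 to 0.38), and Rbl1 lay within counting error at 0.04. On the TPM scale the Rb1 ratio, centred on the median of all genes, was 0.53, and the ratio of its coding transcript was 0.22. Of the 8 E2f genes, E2f5 was higher at 0.31 (0.17 to 0.45) and the other 7 lay within counting error, between -0.15 for E2f1 and 0.21 for E2f8. The 3 activating E2f genes were therefore not distinguishable between the libraries at this depth.

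Trp53 was higher by a small margin at 0.09 (interval 0.01 to 0.17), and scaling to total gene counts placed it within counting error at 0.06. Mdm2 at -0.06 and Gadd45a at 0.10 lay within counting error. Mycn was higher at 0.34 (0.28 to 0.39) and Mycl at 0.24 (0.17 to 0.31), while Myc lay within it at 0.08 (-0.03 to 0.19). Tob1 was higher at 0.40 (0.29 to 0.51), Btg1 at 0.32 (0.25 to 0.39) and Skp2 at 0.29 (0.19 to 0.39). Gadd45g was the exit regulator that did not pass, at -0.005 (-0.10 to 0.09).

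**Figure D4:**
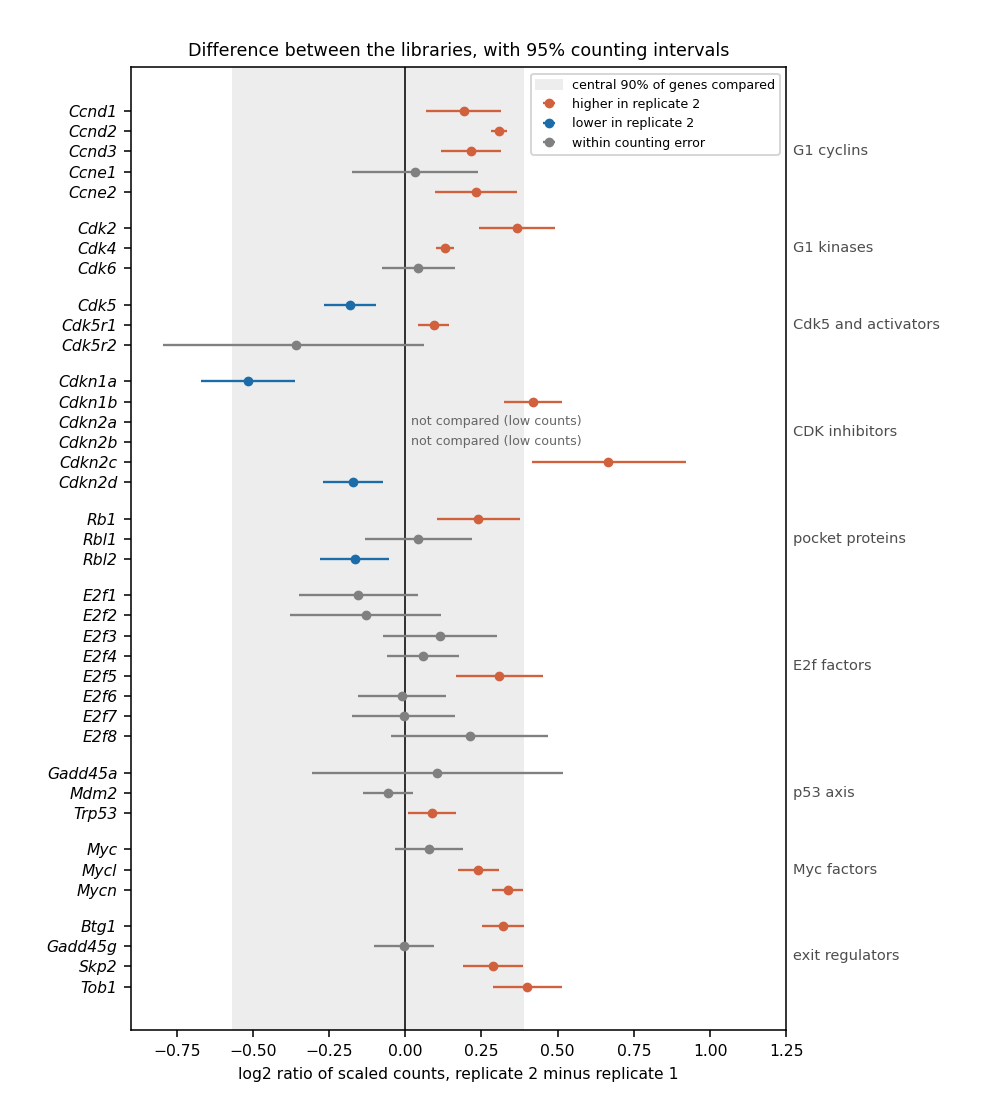
Log2 ratio of scaled counts, replicate 2 minus replicate 1, for the 36 genes compared, with 95% counting intervals and the central 90% of all genes compared in grey (-0.57 to 0.39). The 17 genes higher in replicate 2 are red and the 4 lower ones blue (Cdkn1a, Cdk5, Cdkn2d and Rbl2, which turn above 0 when scaled to spike-ins), and Cdkn2c at 0.67 and Cdkn1a at -0.52 mark the ends.

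Genes that act around these regulators were counted in the same way, and their counts are to be read against the 26.5% higher and 24.0% lower among all genes. Of 20 E2F and G1/S target genes, 11 were higher in replicate 2, none lower and 9 within counting error, with a median log2 ratio of 0.15. The highest by level were Mcm7, a subunit of the replicative helicase, at 143 and 162 TPM, Pcna, the replication clamp, at 137 and 163 TPM, and Rrm2, a subunit of ribonucleotide reductase, at 114 and 143 TPM. The 4 genes of S, G2 and M phase, Ccna2, Ccnb1, Ccnb2 and Cdk1, were all higher, with a median of 0.32. Ccnb1 and Cdk1 are also among the proliferation markers, so these lists are not independent. Cdk1, the kinase of mitotic entry, stood at 127 and 160 TPM.

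The DREAM complex joins the MuvB proteins to pocket proteins and E2f factors at cell cycle promoters. On the list of MuvB and DREAM, which also holds Foxm1, Mybl1 and Mybl2, 5 of 8 genes were higher (Rbbp4, Foxm1, Lin9, Lin54 and Mybl1). None was lower and 3 lay within counting error, and the median of the 8 was 0.15. Rbbp4, a histone chaperone shared with other complexes, stood at 320 and 368 TPM, Lin37 at 44.1 and 46.8 TPM, Lin52 at 33.7 and 35.9 TPM and Mybl1 lowest at 1.51 and 1.86 TPM. Of 10 genes of SCF and APC/C degradation, to which Skp2 is an adaptor on the SCF side, 7 were higher, 1 lower and 2 within counting error. The lower one was Fzr1, an APC/C activator of G1, at 110 and 101 TPM with a ratio of -0.11. Skp1a, the core linker of SCF ligases, stood at 951 and 1022 TPM, Rbx1, their RING subunit, at 287 and 282 TPM, Cul1, their scaffold, at 134 and 152 TPM, and Btrc lowest at 24.0 and 25.1 TPM.

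The p53 targets lay on both sides of 0. Of 18 genes, 17 were compared, of which 7 were higher (Plk2, Btg2, Sesn1, Trp53inp1, Ccng1, Rrm2b and Perp), 4 lower (Bax, Sesn2, Zmat3 and Pmaip1) and 6 within counting error, with a median of -0.05. The share of lower targets, 4 of 17, lay near the 24.0% of all genes, and that of higher targets, 7 of 17, lay above the 26.5%. Plk2 stood at 184 and 194 TPM, Bax, an effector of apoptosis, at 195 and 173 TPM and Ei24 at 105 and 107 TPM. Fas, a death receptor, was the lowest at 0.50 and 1.05 TPM and had too few counts to compare. The ratios ran from -0.49 for Pmaip1 (Noxa) and -0.44 for Sesn2 to 0.36 for Trp53inp1 and 0.39 for Perp, beside -0.52 for Cdkn1a and 0.09 for Trp53 itself.

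Of 8 Myc network partners, 2 were higher (Mga and Mxi1), 2 lower (Max and Mxd4) and 4 within counting error, with a median of -0.03, and both shares lay near those of all genes. Mlx stood at 77.7 and 85.6 TPM, Mga at 23.9 and 24.8 TPM, Mxd4 at 24.5 and 22.8 TPM and Mnt, a repressor that competes for Max, lowest at 7.64 and 7.30 TPM. Max, the obligate partner of Myc proteins, stood at 17.6 and 14.8 TPM, below each of the 3 Myc factors in each library. Of 5 relatives of Btg1, Tob1 and the Gadd45 genes, Btg2 and Tob2 were higher and 3 lay within counting error. Btg2, a marker of progenitors in neurogenic division, stood at 46.6 and 56.3 TPM, Gadd45gip1 at 28.5 and 26.6 TPM, Btg3 at 18.8 and 20.6 TPM and Gadd45b lowest at 4.25 and 5.60 TPM. The same Btg2 values were counted among the p53 targets and the intermediate progenitor markers. Of the kinase that activates CDKs, Ccnh was higher by its counts (log2 ratio 0.11), though its TPM was nearly equal at 98.3 and 98.8. Cdk7 at 14.7 and 15.8 TPM and Mnat1 at 14.3 and 12.3 TPM lay within counting error.

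**Figure D5:**
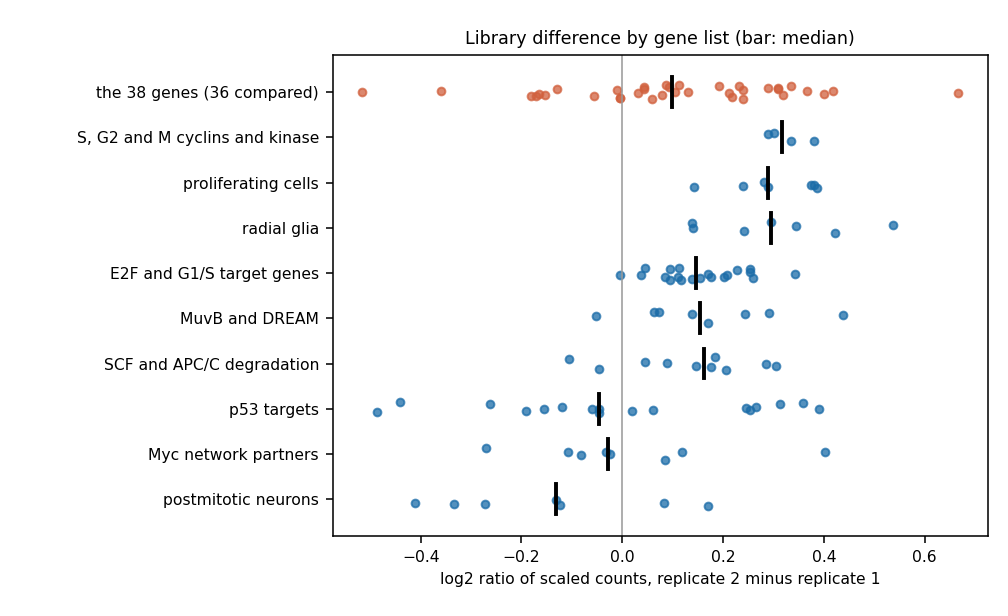
Log2 ratio of scaled counts, replicate 2 minus replicate 1, for each gene compared in the 38 genes (red) and in 9 lists (blue), with a bar at the median of each. The medians run from 0.32 for the genes of S, G2 and M phase to -0.13 for the markers of postmitotic neurons, and the 38 genes at 0.10 spread over both sides of 0. Cdk1 and Ccnb1 stand in both the list of S, G2 and M phase and that of proliferating cells. With spike-in scaling the zero line would move, since the median of all genes is then 0.56.

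The library ratios were also set beside the E2f words, taking for each gene the window nearest to its leading transcript. For Cdkn2c, E2f1, E2f8 and Cdk4 the start site of that window lay 433, 466, 555 and 2541 bases from the leading transcript's start. The bases just before the leading start of these genes were therefore not searched, and they count among the genes without a word. The 6 genes whose main window held a word had a median of 0.08 (from -0.13 for E2f2 to 0.37 for Cdk2), and the 21 compared genes whose main window held none had a median of 0.09 (from -0.52 to 0.67). Of the 6, Cdk2 and Mycn were higher in replicate 2, and E2f2, E2f3, E2f7 and Rbl1 lay within counting error. Of the 21, 9 were higher, 3 lower and 9 within counting error. Over all genes compared, 26.5% were higher and 24.0% lower.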

How the data were processed

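Total RNA sequencing of 2 forebrain pools gave 1 gene table and 1 transcript table per library. Per the notes deposited with the samples, mapping was to mm10 and quantification on GENCODE M4. Aligner, quantification program and strand setting: not given in the sources used here. Expected counts (estimated, not normalized), TPM, FPKM and each transcript's percent of its gene were deposited by the authors, per the file headers. Spike-ins are inside the TPM scale, and the shortest transcripts of a gene weigh more in its TPM than in its counts.

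Symbols, coordinates and transcript types came from GENCODE M21 (GRCm38, the assembly of mm10) by identifier, and 42462 of 43346 genes matched. Log2 ratios used expected counts with a prior count of 0.5 and TMM factors of edgeR 4.0.16 (R 4.3.3), for genes with a mean count of at least 50, and counts were rounded to whole numbers for the factors and the intervals. The 95% Clopper-Pearson intervals cover counting error only, since PCR reads are not independent molecules. The ratio procedure was tested on simulated counts that varied by counting error alone. That test therefore does not cover other variation between libraries. Other steps used Python 3.11.15, numpy 2.4.6, pandas 2.3.3, scipy 1.17.1 and matplotlib 3.10.9. Alternatives included DESeq2 1.42.0 size factors, spike-in scaling, posterior means, TPM ratios and other minimums.

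The genes and lists were chosen with earlier results of these data known. The naming rule takes all 38 genes and, of each pathway list, the 3 genes of highest level, the lowest and any at least 2-fold apart. Of these, 1 gene is not reported here. Other list genes are named where they make up a small count or stand beside one of the 38; these were picked with their values in view. Skp1 matched no gene under that name and Skp1a did. Transcript shares cover genes with several transcripts that reached 10 TPM in each library, and Cdkn2a and E2f3 at any level.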

Additional observations from a re-analysis of the deposited data

How the results depend on the processing

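Of the counts and the median reported for the 36 genes compared, scaling to spike-in counts moved all: 1 gene was then at least 2-fold apart (Cdkn2c), 34 were higher in replicate 2, 0 were lower, and the median log2 ratio was 0.65, against 0.56 over all genes (0.09 relative to it). Over all genes 86.9% were then higher, 1.54% lower and 535 at least 2-fold apart, so the shares of the 36 lay near those of all genes. Under that scaling the ratio turned above 0 for Cdkn1a (0.038), Cdk5 (0.37), Cdkn2d (0.38) and Rbl2 (0.39), and for E2f1 (0.40), E2f2 (0.42), Mdm2 (0.50), E2f6 (0.54), E2f7 (0.55) and Gadd45g (0.55), which had lain within counting error. Cdk5r2 also turned, to 0.19, and stayed within it. Ratios of TPM, an alternative added after seeing the data, moved 6 of the 36 genes by more than the half-width of their intervals: Ccnd1, Cdk4, Rb1, Rbl1 (-0.14), Rbl2 and E2f3 (-0.08). The spike-in share was 5.93% of TPM in replicate 1 and 4.10% in replicate 2, and which scaling is nearer to the RNA of the tissue was not tested. DESeq2 size factors, upper quartile scaling, total gene counts, posterior mean counts, a prior count of 2 and minimum mean counts of 20, 200 or none left 0 genes at least 2-fold apart, 16 or 17 higher, 4 lower and a median between 0.08 and 0.10. The number detected was 36 at a minimum of 0.5 TPM, with FPKM, with posterior mean TPM and without either replicate, and 33 at 5 TPM. Restricting to coding transcripts, an alternative added after seeing the data, kept the sign of all 23 pairs whose libraries had the same sign and moved 11 of 24 pairs by more than their SD. No paired analysis was possible because both libraries belong to 1 group. The median half-width of the counting intervals of the 36 genes was 0.12 on the log2 scale, which limits what smaller differences can show.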
